A study of Mus musculus with 18 samples.

Results

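The expression of 9 transcription factor genes that blood stem cells are known for was followed through all libraries: 5 Hox genes of the HOXA cluster (HOXA3, HOXA5, HOXA7, HOXA9 and HOXA10), 1 of the HOXB cluster (HOXB4), the Hox cofactors MEIS1 and PBX3, and HLF. They were chosen by name, with earlier results of these data known, and each was found as a row among the 25601 gene names of the deposited tables. These 9 genes are called the members here.

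Bone marrow LSK cells (no Lineage markers, cKit and Sca1 present), a fraction that includes stem cells and multipotent progenitors, were taken from C57Bl/6 mice, and 18 libraries made up 6 groups of 3. Freshly sorted irradiated libraries came from mice that had received 2.5 Gy of Cs-137 radiation and then recovered for at least 9 weeks, and freshly sorted control libraries from mice without it; each of these libraries pooled LSK cells of 3 mice. The cultured libraries were irradiated with DL1, control with DL1, irradiated without DL1 and control without DL1, with the same radiation and recovery; each started from 200 LSK cells of 1 mouse, which grew for 6 days with the cytokines hIL-6, hIL-11, mSCF and hFlt3L and were then sorted as LSK once more. DL1 was read as the Notch ligand Delta-like 1. The labels do not say how it was given to the cells, and for control samples the source entry speaks of irradiated marrow, against their titles and condition entries, which were used for the grouping.

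Hox proteins bind DNA through a homeodomain, and in blood they work together with Pbx and Meis proteins, which belong to the TALE class of homeodomain proteins and sharpen and strengthen their binding. Genes at the middle of the HOXA cluster, above all HOXA9 with its cofactor MEIS1, are highest in stem cells and early progenitors, are switched down as these cells mature, and drive leukemia when they stay on. HLF is a PAR bZIP factor, a leucine zipper protein whose transcript is among the narrowest markers of stem cells in mouse bone marrow.

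The stretch just before the start of transcription is shown for the 3 members that DL1 lowered most and for MEIS1, which DL1 raised (values further on), so that the start regions can be read next to the response. Each is the 250 bases before the RefSeq start (for Hoxa10, the first of its 2 starts) in build GRCm38.p6, written 5′ to 3′ on the gene's own strand. Capitals mark matches, on either strand, to 9 short motifs.
Hoxa9 (chr6:52227371-52227620, minus strand): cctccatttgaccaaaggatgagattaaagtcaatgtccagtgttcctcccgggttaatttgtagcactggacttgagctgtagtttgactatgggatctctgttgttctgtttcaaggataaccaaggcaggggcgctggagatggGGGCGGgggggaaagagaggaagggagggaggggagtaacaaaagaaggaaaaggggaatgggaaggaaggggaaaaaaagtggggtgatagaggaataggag
Hoxa10 (chr6:52240855-52241104, minus strand): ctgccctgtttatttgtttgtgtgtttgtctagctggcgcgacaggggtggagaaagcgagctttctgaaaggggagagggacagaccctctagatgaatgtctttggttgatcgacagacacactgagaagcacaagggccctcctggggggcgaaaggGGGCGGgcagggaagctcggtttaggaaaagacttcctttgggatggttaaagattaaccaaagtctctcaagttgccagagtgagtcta
Hlf (chr11:90390918-90391167, minus strand): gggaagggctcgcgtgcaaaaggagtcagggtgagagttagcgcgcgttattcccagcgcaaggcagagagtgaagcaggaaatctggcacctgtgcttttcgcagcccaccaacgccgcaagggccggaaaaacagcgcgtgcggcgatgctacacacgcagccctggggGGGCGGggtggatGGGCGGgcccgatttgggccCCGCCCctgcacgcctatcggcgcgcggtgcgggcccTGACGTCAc
Meis1 (chr11:19018970-19019219, minus strand): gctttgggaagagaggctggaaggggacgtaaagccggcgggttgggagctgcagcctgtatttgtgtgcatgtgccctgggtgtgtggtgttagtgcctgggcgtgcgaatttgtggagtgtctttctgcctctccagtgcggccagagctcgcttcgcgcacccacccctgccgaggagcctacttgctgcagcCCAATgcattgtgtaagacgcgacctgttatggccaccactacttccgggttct
The 9 motifs were GTGGGAA (the RBPJ site of Notch signalling), TTGCNNAA (C/EBP), TGATTNAT (Hox with Pbx), TGACAG (Meis) and TGACGTCA (the cyclic AMP response element). The other 4 were the E-box CACGTG, the general promoter elements known as the GC box, written GGGCGG, and the CAAT box, written CCAAT, and a TATA box of the letters TATAAA. No 2 of the matches overlap in the printed stretches. The capitals in Hoxa9 and Hoxa10 are 1 GC box each, those in Hlf are 3 GC boxes and a cyclic AMP response element that starts 9 bases before the start, and those in Meis1 are a CAAT box. The stretch before the other Hoxa10 start, not printed, holds a CAAT box and a TATA box and no GC box. Which start these cells use was not tested. Among 32851 promoter stretches of the same length, GGGCGG is found in 32.7%, CCAAT in 33.8% and TGACGTCA in 1.55%. The RBPJ letters occur in 5.42% of them, the C/EBP letters in 9.56%, the Hox-Pbx letters in 2.82%, the Meis letters in 15.9%, CACGTG in 6.02% and TATAAA in 12.4%. Of the 9 members, 8 had an entry. None of the 4 printed stretches holds the letters searched for RBPJ, C/EBP, Hox-Pbx or Meis, which says only that those letters are not in these windows.

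Values are FPKM (fragment counts corrected for how long the transcript is and how deep the library was), and levels of different genes are compared on that scale. Fresh and cultured cells are in 2 tables that were each normalized alone, and they were not tested against each other. Relative depth, read from the smallest steps in the values, lay between 0.645 and 1.0 of the deepest in the freshly sorted libraries and between 0.488 and 1.09 of the first control in the cultured ones. The shallowest cultured library, irradiated replicate 2 with DL1, also had the highest COL1A1 and COL1A2, genes of collagen-making stromal cells, at 2.82 and 3.34 FPKM against at most 0.247 and 0.286 FPKM in the other 11 cultured libraries. In the freshly sorted table only control replicate 2 had a value above 0 for 18S ribosomal RNA, 39300 FPKM. The LSK label was checked against its defining genes: KIT averaged 112 FPKM in freshly sorted irradiated cells and 106 FPKM in freshly sorted control cells, and between 34.3 and 39.0 FPKM in the cultured groups, while LY6A, which encodes Sca1, averaged 149 and 166 FPKM in the same fresh groups and between 496 and 596 FPKM in culture. Markers seen in the narrower stem cell fraction were low after culture. PROCR averaged 0.828 FPKM in control cultures and 20.7 FPKM in freshly sorted control cells, and MECOM averaged 0.735 FPKM and 12 FPKM in those groups.

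In cells taken straight from the mice, the members differed widely in level, with HLF and MEIS1 far above the rest, and none passed the test between irradiated and control cells. HLF had 129, 94.7 and 114 FPKM in the irradiated libraries, against 128, 113 and 144 FPKM in the control libraries. MEIS1 had 65.5, 57.6 and 59.7 FPKM in irradiated cells, against 59.4, 54.4 and 65.3 FPKM in control cells. Both groups overlapped for both genes.

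The 6 Hox members and PBX3 lay in a narrow band, with group means between 4.33 and 9.86 FPKM. HOXA9, needed for normal repopulation by mouse stem cells, had 8.39, 8.31 and 7.16 FPKM in freshly sorted irradiated cells, against 10.6, 8.54 and 10.4 FPKM in control cells. HOXA3, which restrains blood formation in the endothelium of mouse embryos, had 5.52, 4.40 and 4.11 FPKM in irradiated cells, against 5.53, 5.79 and 6.41 FPKM in control cells. These were the 2 members whose irradiated libraries all lay below all control libraries, in HOXA3 by 5.52 against 5.53 FPKM at the nearest. HOXA10 was the steadiest, at 6.67, 6.83 and 6.88 FPKM in irradiated cells, against 6.51, 6.32 and 6.79 FPKM in control cells. PBX3 averaged 5.25 ± 1.24 FPKM in irradiated and 4.33 ± 0.672 FPKM in control cells, HOXB4 4.53 ± 1.15 and 4.85 ± 0.727 FPKM, HOXA5 8.24 ± 1.24 and 8.40 ± 1.19 FPKM, and HOXA7 7.79 ± 1.39 and 7.16 ± 0.246 FPKM in the same order of groups (SD, n = 3). The level of HOXA7 beside other genes is uncertain here and in culture, because the steps in its values correspond to a length of 5893 to 5900 bases, against 2031 bases for the nearest annotated transcript.

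None of the 9 members tested passed an adjusted p of 0.05 in irradiated against control freshly sorted cells, where 0.101% of the 12890 genes tested did (limma on log2(FPKM + 1), Benjamini-Hochberg over all genes tested). At an unadjusted p under 0.05 there were 2 members, HOXA9 and HOXA3, beside 6.87% of all genes, and groups that did not overlap with the irradiated lower were also found in 5.28% of all genes. The log2 changes were -0.28 for HOXA9 (95% interval -0.53 to -0.02, adjusted p = 0.676, limma) and -0.29 for HOXA3 (-0.57 to -0.01, adjusted p = 0.693). The narrowest intervals were those of HOXA10, -0.15 to 0.25, and MEIS1, -0.18 to 0.24. On simulated data of this design 29% of log2 changes of 0.5 and 78% of log2 changes of 1 were recovered, so changes of the smaller size could not reliably be detected. Megakaryocyte markers (4 genes) summed to between 67.9 and 131 FPKM in irradiated and between 37.9 and 59.1 FPKM in control cells, and their part in these values was not tested.

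**Figure D1:**
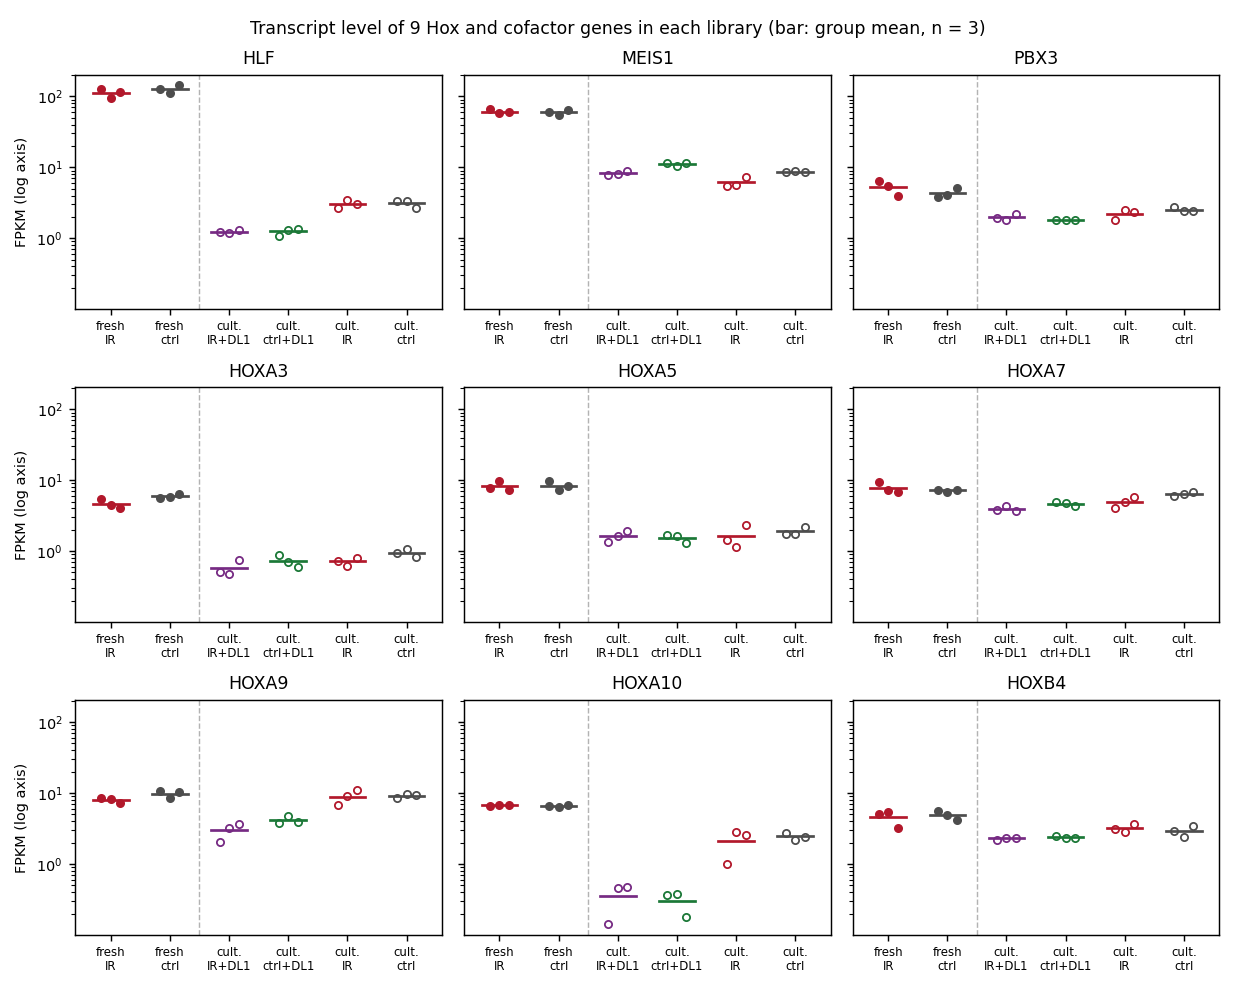
FPKM of each member in each of the 18 libraries, on a log axis, with a bar at each group mean. Freshly sorted groups (filled points) stand left of the dashed line and the 4 cultured groups (open points) right of it. HLF averages 113 and 129 FPKM in the freshly sorted groups and between 1.23 and 3.13 FPKM in culture, and HOXA10 is lowest in the 6 libraries with DL1, none of which exceeds 0.467 FPKM.

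After 6 days of culture the members kept different shares of their fresh level. HLF averaged 3.13 FPKM in control cultures without DL1 beside 129 FPKM in freshly sorted control cells, a ratio of fresh to cultured of 41.1, and MEIS1 averaged 8.61 FPKM beside 59.7 FPKM, a ratio of 6.93. HOXA3 and HOXA5 followed with ratios of 6.24 and 4.43, whereas HOXA9 (9.20 FPKM in culture and 9.86 FPKM fresh) and HOXA7 (6.43 and 7.16 FPKM) had ratios of 1.07 and 1.11. HOXA10, HOXB4 and PBX3 lay between, at 2.67, 1.67 and 1.71. Since the tables were scaled separately, each gene was also ranked within its own library among the 14790 names above 0 in every library. HLF stood at the 29.1 to 32.6 percentile in the 6 cultured libraries without DL1 and at the 94.7 to 96.6 percentile in the 6 freshly sorted ones. MEIS1 stood at 39.3 to 49.0 in culture and at 90.4 to 92.5 when fresh, and HOXA9 at 43.4 to 53.3 in culture and 46.0 to 55.4 when fresh. Culture and separate normalization cannot be told apart in the FPKM ratios, and neither comparison has a test.

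**Figure D2:**
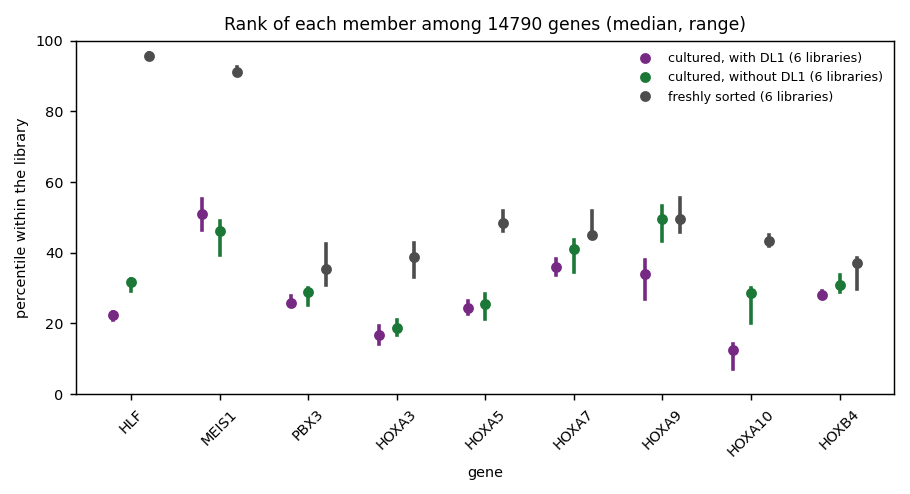
Percentile of each member among 14790 gene names within its own library, as the median (point) and the range (line) over 6 libraries with DL1, 6 cultured without DL1 and 6 freshly sorted. HLF and MEIS1 fall furthest between freshly sorted and cultured libraries, whereas HOXA9 without DL1 keeps its place near the middle and HOXA10 with DL1 stands lowest, between 7.17 and 14.3.

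With DL1 in the culture HOXA9, HOXA10 and HLF were lower, in control and in irradiated cultures alike, while MEIS1 was higher. HOXA10 fell furthest. It had 0.143, 0.452 and 0.467 FPKM in irradiated cultures with DL1, against 0.987, 2.84 and 2.53 FPKM in irradiated cultures without it. In control cultures it had 0.365, 0.374 and 0.176 FPKM with DL1, against 2.72, 2.21 and 2.41 FPKM without. No library with DL1 reached the lowest library without it, which was irradiated replicate 1. The mean with DL1 was 0.167 times that without in irradiated and 0.124 times in control cultures. The log2 changes on the log2(FPKM + 1) scale were -1.16 ± 0.204 (SE, adjusted p = 8.22e-04, limma) and -1.40 ± 0.204 (adjusted p = 2.86e-04). That scale understates a gene this low: with a pseudocount of 0.1 in place of 1 they were -2.26 and -2.69, and with 5 they were -0.40 and -0.49. At its transcript lengths of 1436 and 2565 bases the values with DL1 stand for about 5 to 34 reads a library, so counting error is large there. HOXA10 passed the expression filter through the groups without DL1, so that its being lower with DL1 is partly set by the filter. In a fit without the filter its adjusted p was 0.00292 in irradiated and 0.00143 in control cultures (limma).

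HOXA9 had 2.05, 3.25 and 3.72 FPKM in irradiated cultures with DL1, against 6.82, 9.00 and 10.9 FPKM in irradiated cultures without. In control cultures it had 3.79, 4.81 and 3.91 FPKM with DL1, against 8.51, 9.82 and 9.27 FPKM without. The 6 libraries with DL1 all lay below the 6 without. The log2 changes were -1.31 ± 0.167 in irradiated (adjusted p = 7.66e-05, limma) and -0.98 ± 0.167 in control cultures (adjusted p = 8.71e-04). The steps in its values correspond to 464 reads over the 3 irradiated libraries with DL1 against 1387 without, and 791 reads over the 3 control libraries with DL1 against 1530 without. The hairpin gene Mir196b lies within 1.52% of the annotated exonic bases of Hoxa9 on the same strand.

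HLF had 1.21, 1.17 and 1.32 FPKM in irradiated cultures with DL1, against 2.64, 3.41 and 3.09 FPKM without. In control cultures it had 1.08, 1.32 and 1.36 FPKM with DL1, against 3.33, 3.34 and 2.70 FPKM without. Again no library with DL1 reached one without. The mean with DL1 was 0.405 times that without in irradiated cultures (log2 change -0.85 ± 0.0941, adjusted p = 2.39e-05, limma) and 0.401 times in control cultures (-0.87 ± 0.0941, adjusted p = 3.36e-05). At these depths HLF still had between 90 and 226 implied reads in each library with DL1. Each of the DL1 changes of HOXA10, HOXA9 and HLF passed the threshold whichever of the 6 libraries compared was left out, the shallow one included. These fits used the same filter, so its limit for HOXA10 holds here too.

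Among the other Hox members the changes with DL1 were smaller. HOXA7 fell in control cultures, with 4.92, 4.77 and 4.29 FPKM with DL1 against 6.07, 6.47 and 6.75 FPKM without (log2 change -0.39 ± 0.0977, adjusted p = 0.0106, limma). In irradiated cultures HOXA7 had 3.84, 4.26 and 3.68 FPKM with DL1 against 4.0, 4.88 and 5.75 FPKM without, groups that overlap (-0.25 ± 0.0977, adjusted p = 0.0616). That result depends on scaling and on one library: the adjusted p was 0.0250 with median-ratio scaling, 0.0306 without ribosomal and small RNA rows and 0.00749 without irradiated replicate 1. Reads of Hoxa7 cannot be told apart from those of the antisense gene Hoxaas3 over 20.4% of its exonic bases, since the library kit does not mark strand.

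HOXB4, a Hox factor that expands mouse stem cells when forced on, fell in irradiated cultures, where it had 2.19, 2.32 and 2.36 FPKM with DL1 against 3.11, 2.83 and 3.69 FPKM without (-0.35 ± 0.0979, adjusted p = 0.0133, limma). In control cultures it had 2.50, 2.31 and 2.32 FPKM with DL1 against 2.91, 2.41 and 3.40 FPKM without (-0.20 ± 0.0979, adjusted p = 0.152, and 0.0479 without control replicate 2). PBX3 had 1.78, 1.82 and 1.80 FPKM in control cultures with DL1 against 2.74, 2.42 and 2.46 FPKM without (-0.34 ± 0.0923, adjusted p = 0.0177). The adjusted p of PBX3 was 0.0769 without control replicate 1, 0.0564 without control replicate 1 with DL1 and 0.0509 without control replicate 3 with DL1. In irradiated cultures PBX3 averaged 2.0 ± 0.211 FPKM with DL1 and 2.22 ± 0.385 FPKM without (SD, n = 3), which overlap. HOXA5 averaged 1.62 ± 0.294 FPKM with DL1 and 1.64 ± 0.649 FPKM without in irradiated cultures, and 1.55 ± 0.197 and 1.90 ± 0.242 FPKM in control cultures, and did not pass in either. HOXA3 was below the filter in culture, with all values between 0.471 and 1.08 FPKM. In a fit without the filter it passed in irradiated cultures with DL1 against control cultures without (log2 change -0.31, adjusted p = 0.0297, limma), and not with DL1 in irradiated (adjusted p = 0.276) or control cultures (0.171), nor in irradiated against control cultures without DL1 (0.169) or with it (0.508).

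MEIS1 moved the other way. It had 7.88, 7.98 and 8.92 FPKM in irradiated cultures with DL1, against 5.45, 5.68 and 7.24 FPKM in irradiated cultures without. In control cultures it had 11.4, 10.5 and 11.6 FPKM with DL1, against 8.55, 8.80 and 8.49 FPKM without. Neither pair of groups overlaps. The log2 changes with DL1 were 0.39 ± 0.0854 in irradiated (adjusted p = 0.00364, limma) and 0.34 ± 0.0854 in control cultures (adjusted p = 0.0113). Exons of Meis1 share 8.51% of their bases with the antisense gene Gm16140 and 9.77% with Gm37818 on the same strand, whose reads cannot be separated here.

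Of the 8 members tested in culture, 1 passed the test as higher and 4 as lower with DL1 in irradiated cultures, where 24.4% of all 12011 genes tested were higher and 17.0% lower (41.4% in either direction). In control cultures 1 was higher and 5 were lower, beside 14.0% and 12.3% of all genes (26.3% in either direction). HOXA10 is among the lower members in both, under the filter limit given above. The median log2 change of the tested members was -0.30 in irradiated and -0.365 in control cultures, beside 0.06 and 0.04 over all genes tested. Since the members were chosen with earlier results of these data known, these counts and medians are descriptions. Scaling moved the balance over all genes: with median-ratio scaling 45.3% of the genes called were higher with DL1 in irradiated cultures and 42.6% in control cultures, against 59.0% and 53.1% as reported, while the members' calls named above for HOXA9, HOXA10, HLF and MEIS1 stayed the same.

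Other cells' markers moved with DL1 as well. The 8 macrophage markers summed to between 185 and 199 FPKM in irradiated cultures with DL1 and between 486 and 759 FPKM without, and to between 129 and 149 FPKM in control cultures with DL1 and between 239 and 379 FPKM without. The 8 granulocyte markers summed to between 5120 and 6460 FPKM in irradiated cultures with DL1 and between 8260 and 10800 FPKM without, and to between 3390 and 3540 FPKM in control cultures with DL1 and between 4630 and 5340 FPKM without. The 6 T cell markers summed to between 29.0 and 56.9 FPKM in the 6 libraries with DL1 and between 3.38 and 6.35 FPKM in the 6 without. Most of that sum was TCF7, a transcription factor gene that Notch turns on. CD3G averaged 1.18 FPKM in irradiated cultures with DL1 and 0.0294 FPKM without, and 1.59 and 0.0707 FPKM in control cultures with and without DL1. GATA3 averaged 1.67 and 0.206 FPKM in irradiated and 1.94 and 0.198 FPKM in control cultures with and without DL1, CD3D 0.395 and 0.133 FPKM and 0.615 and 0.162 FPKM, while CD3E averaged at most 0.0687 FPKM in any cultured group. The 5 markers of stroma and endothelium summed to between 6.64 and 12.2 FPKM with DL1 and between 1.47 and 2.47 FPKM without. PDGFRB made up most of the mean sum in each group, with 6.56 FPKM in irradiated cultures with DL1 and 1.73 FPKM without, and 9.29 and 1.67 FPKM in control cultures with and without DL1. CDH5 and CXCL12 averaged at most 0.0694 and 0.0343 FPKM in any cultured group, and the sum of 12.2 FPKM belongs to irradiated replicate 2 with DL1, where COL1A1 and COL1A2 had the 2.82 and 3.34 FPKM given above. The part of these shifts in the members' changes was not tested, and in such bulk samples fewer cells of a type and less RNA per cell cannot be told apart.

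**Figure D3:**
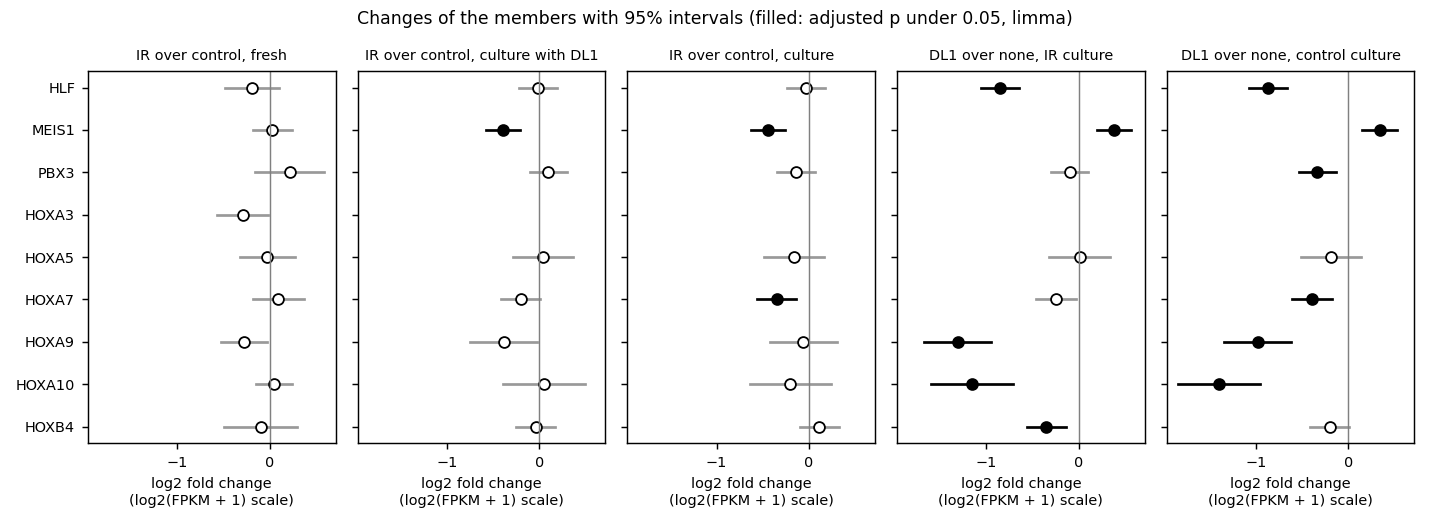
Log2 fold changes of the members, on the log2(FPKM + 1) scale, with 95% intervals in 5 comparisons, where filled points have an adjusted p under 0.05 (limma) and HOXA3 was not tested in culture. With DL1, HLF, HOXA9 and HOXA10 lie left of 0 in both irradiated and control cultures and MEIS1 lies right of 0, while MEIS1 lies left of 0 in both comparisons of irradiated with control cultures.

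In culture without DL1, 2 of the 8 members tested were called between irradiated and control cells. With 29.7% of all genes called there, members were not called more often than genes at large. MEIS1 was lower in irradiated cells without DL1, by the values given above (log2 change -0.44 ± 0.0854, adjusted p = 0.00347, limma), and its mean was 0.711 times the control mean. With DL1 in both arms its mean was 0.74 times the control mean (-0.395 ± 0.0854, adjusted p = 0.0309), and all 3 irradiated libraries again lay below all 3 control libraries. This second call was the less firm: the adjusted p lay between 0.0343 and 0.126 as each library was left out, it exceeded 0.05 without control replicate 1 or 3 with DL1 or irradiated replicate 1 or 2 with DL1, and it was 0.0703 with no filter on low values. HOXA7 had 4.0, 4.88 and 5.75 FPKM in irradiated cultures against 6.07, 6.47 and 6.75 FPKM in control cultures, without overlap (-0.35 ± 0.0977, adjusted p = 0.0202). Its adjusted p was 0.0698 when only these 2 groups were fitted, 0.0632 without control replicate 2, 0.0563 without control replicate 3 and 0.0744 without irradiated replicate 1.

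The other members did not pass between irradiated and control cultures. HLF averaged 3.05 ± 0.384 FPKM in irradiated and 3.13 ± 0.368 FPKM in control cultures (SD, n = 3), with a 95% interval of the log2 difference from -0.23 to 0.18. HOXA9 averaged 8.91 ± 2.04 and 9.20 ± 0.662 FPKM in the same groups (interval -0.42 to 0.30), and HOXA10 2.12 ± 0.994 and 2.45 ± 0.257 FPKM (-0.64 to 0.24). Irradiated replicate 1 was the lowest of the 6 for both, at 6.82 FPKM of HOXA9 and 0.987 FPKM of HOXA10. HOXA5 averaged 1.64 ± 0.649 and 1.90 ± 0.242 FPKM, and its adjusted p was 0.455, or 0.0363 without irradiated replicate 3, which had 2.37 FPKM. With DL1 in both arms HOXA9 was lower in the irradiated libraries without overlap (interval -0.75 to -0.02), but its adjusted p was 0.241.

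Against these 2 members called lower and 0 higher without DL1 stand 15.9% of all genes lower, 13.8% higher and 29.7% in either direction. With DL1 it was 1 member lower, beside 0.649% of all genes lower and 3.16% in either direction. The macrophage sums above are higher in irradiated than in control cultures both with and without DL1, as are the granulocyte sums. Without DL1 the megakaryocyte markers summed to between 195 and 272 FPKM in irradiated and between 78.5 and 107 FPKM in control cultures, the 5 mast cell and basophil markers to between 128 and 156 and between 76.4 and 86.4 FPKM, and the 5 erythroid markers to between 9.34 and 23.5 and between 29.2 and 35.2 FPKM. With DL1 the megakaryocyte sums were between 75.3 and 96.6 FPKM in irradiated and between 111 and 115 FPKM in control cultures, the mast cell and basophil sums between 126 and 147 and between 91.5 and 145 FPKM, and the erythroid sums between 3.27 and 9.23 and between 6.94 and 14.8 FPKM. Their part in the values of MEIS1 and HOXA7 was not tested.

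No member's change after irradiation differed between cultures with and without DL1 past the threshold (0 of 8, beside 0.0749% of all genes, limma), and 0 did at an unadjusted p under 0.05, beside 10.4% of all genes. The intervals of that difference were widest for HOXA10, -0.38 to 0.88, and HOXA9, -0.84 to 0.19, and narrowest for MEIS1, -0.22 to 0.31.

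MEIS1 had 4 group means in culture in the order 11.2 FPKM in control cultures with DL1, 8.61 FPKM in control cultures, 8.26 FPKM in irradiated cultures with DL1 and 6.12 FPKM in irradiated cultures. Control cultures without DL1 and irradiated cultures with DL1 overlap, while the other neighbours do not. Set directly against control cultures without DL1, irradiated cultures with DL1 had a log2 difference in MEIS1 of -0.06, with an interval from -0.24 to 0.13 (adjusted p = 0.687, limma). The same comparison gave -1.37 for HOXA9 (adjusted p = 1.32e-04), -1.36 for HOXA10 (5.50e-04), -0.88 for HLF (5.13e-05) and -0.59 for HOXA7 (0.00104). These 4 were the members that passed, all lower, beside 9.44% of all genes lower and 20.8% in either direction. HOXA10 is among them under the filter limit given above, and without the filter its adjusted p was 0.00238 (limma). This comparison shares its libraries with those above and is no separate evidence. For HLF and HOXA10 irradiated and control groups overlapped both with and without DL1, while no group with DL1 overlapped one without.

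Among the HOXA cluster genes given here, the ratio of levels with and without DL1 was lowest for HOXA9 and HOXA10. In control cultures it was 0.927 for HOXA2, 0.76 for HOXA3, 1.17 for HOXA4, 0.816 for HOXA5, 0.794 for HOXA6, 0.725 for HOXA7, 0.453 for HOXA9 and 0.124 for HOXA10. In irradiated cultures it was 0.338 for HOXA9 and 0.167 for HOXA10, and between 0.797 and 1.73 for the 6 genes from HOXA2 to HOXA7. HOXA11 and HOXA13, which lie beyond, averaged at most 0.00561 FPKM in any cultured group. In the HOXB cluster HOXB2, HOXB3 and HOXB5 had ratios of 0.476, 0.54 and 0.225 in control and 0.325, 0.347 and 0.204 in irradiated cultures, beside 0.818 and 0.713 for HOXB4, which lies between them.

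**Figure D4:**
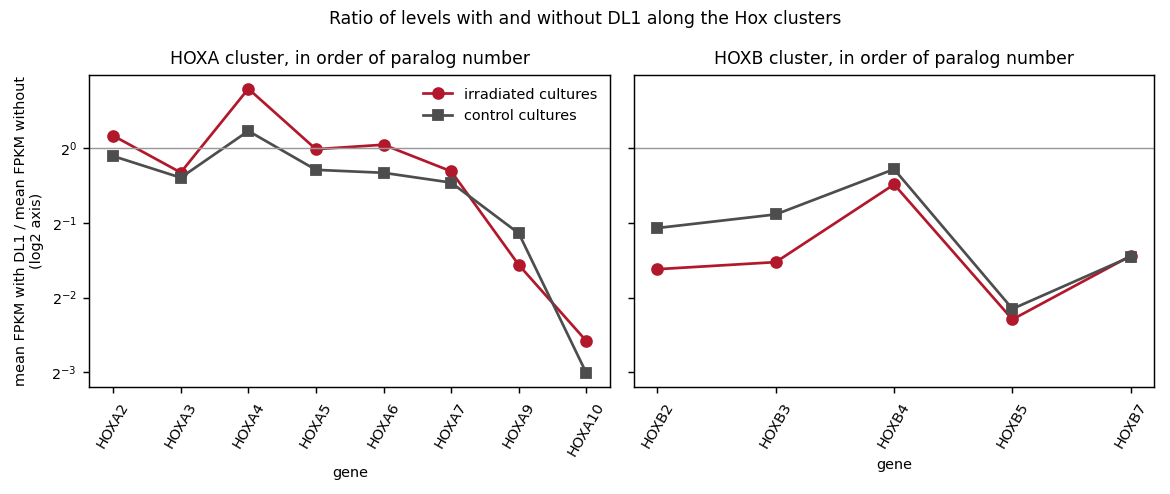
Ratio of mean FPKM with DL1 to that without, on a log2 axis, for 8 genes of the HOXA and 5 of the HOXB cluster in order of paralog number, in irradiated and in control cultures, each with at least 0.05 FPKM without DL1. HOXA10 lies lowest, at 0.167 and 0.124, and HOXA4 highest, at 1.73 and 1.17.

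Of the 33 other Hox genes only HOXB2 and HOXB3 passed the filter in culture. They passed it through the groups without DL1, so that their being lower with DL1 is partly set by the filter, and their values are given as a description. HOXB3 averaged 0.655 ± 0.128 FPKM in irradiated cultures with DL1 and 1.89 ± 0.216 FPKM without (log2 change -0.81, adjusted p = 3.71e-05, limma), and 0.988 ± 0.151 and 1.83 ± 0.171 FPKM in control cultures with and without DL1 (-0.51, adjusted p = 0.00152). HOXB2 averaged 0.488 ± 0.135 and 1.5 ± 0.16 FPKM in irradiated cultures with and without DL1 (-0.75, adjusted p = 3.27e-04), and 0.657 ± 0.245 and 1.38 ± 0.0879 FPKM in control cultures (-0.53, adjusted p = 0.00481). When every gene was tested without a filter, HOXB5 was also lower with DL1, with an adjusted p of 0.00878 in irradiated and 0.0317 in control cultures, on 9 implied reads against 49 and on 11 against 42. HOXA2 averaged 0.233 FPKM in control cultures and 2.60 FPKM in freshly sorted control cells.

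Among the other TALE genes, PBX4 was higher with DL1, at 2.37 FPKM with it and 1.74 FPKM without in irradiated cultures (adjusted p = 0.0448, limma) and at 2.59 and 1.67 FPKM in control cultures (adjusted p = 0.00962). TGIF1 was lower with DL1 in irradiated cultures, at 26.3 and 31.4 FPKM with and without it (adjusted p = 0.00524). TGIF2 was lower in irradiated than in control cultures, at 4.97 and 7.05 FPKM (adjusted p = 0.0110). NFIL3, a leucine zipper repressor that competes for the sites that HLF, DBP and TEF bind, was lower with DL1 too, at 24.4 FPKM against 32.5 FPKM in irradiated cultures (adjusted p = 0.00155) and at 20.4 FPKM against 31.9 FPKM in control cultures (adjusted p = 9.62e-05). DBP was higher in control cultures with DL1, at 1.83 FPKM against 1.34 FPKM (adjusted p = 0.0292), and TEF higher in irradiated than in control cultures without DL1, at 5.62 and 4.54 FPKM (adjusted p = 0.0248).

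Of the 22 chromatin and Cdx genes known to set Hox expression, 19 were tested in culture. With DL1, 6 rose and 2 fell in irradiated cultures, where 41.4% of all genes were called in either direction, and 3 rose and 1 fell in control cultures, where 26.3% were. These shares are near or below those over all genes. EZH2, the methyltransferase of Polycomb complex PRC2, averaged 56.4 FPKM with DL1 and 41.0 FPKM without in irradiated cultures (adjusted p = 3.29e-04, limma), and 64.0 and 55.1 FPKM in control cultures (adjusted p = 0.0422). EED, its partner subunit, averaged 37.6 and 30.8 FPKM in irradiated cultures with and without DL1 (adjusted p = 2.80e-04), and PSIP1, a chromatin reader that tethers Mll to Hox genes, 39.9 and 31.4 FPKM (adjusted p = 0.00294). AFF1 was lower with DL1 in irradiated (14.5 and 18.3 FPKM, adjusted p = 0.00676) and in control cultures (12.2 and 15.8 FPKM, adjusted p = 0.00574). BMI1, a subunit of Polycomb complex PRC1, and AFF4, a subunit of elongation complexes, were higher with DL1 in control cultures, by log2 changes of 0.25 (adjusted p = 0.0172) and 0.26 (adjusted p = 0.0329). Between irradiated and control cultures without DL1, 4 of the 19 fell and 0 rose, beside 15.9% of all genes lower and 29.7% in either direction: EED (30.8 and 37.6 FPKM, adjusted p = 9.73e-04), EZH2 (41.0 and 55.1 FPKM, 0.00171), PSIP1 (31.4 and 40.4 FPKM, 0.00459) and SUZ12 (48.2 and 56.4 FPKM, 0.0253).

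The 12 genes reported downstream of Hoxa9 and Meis1 in mouse leukemia models were followed as well, of which 11 were tested in culture. With DL1, 3 rose and 6 fell in irradiated cultures and 2 rose and 6 fell in control cultures, beside 41.4% and 26.3% of all genes called in either direction. FLT3, a cytokine receptor of early progenitors, averaged 23.3 FPKM in irradiated cultures with DL1 and 6.23 FPKM without (log2 change 1.76, adjusted p = 1.56e-06, limma), and 29.1 and 14.5 FPKM in control cultures with and without DL1 (0.96, adjusted p = 1.94e-04). SOX4 also rose in both, by 0.99 in irradiated (adjusted p = 4.64e-04) and 0.78 in control cultures (adjusted p = 0.00351), and CD34 in irradiated cultures (204 and 160 FPKM, adjusted p = 0.00137). BCL2, MYB, ERG, IGF1R, HIF1A and CDK6 fell in both, HIF1A with a log2 change of -0.54 in irradiated cultures (adjusted p = 2.67e-04) and MYB with -0.41 in control cultures (adjusted p = 0.00293). BCL2, which blocks cell death, averaged 3.85 and 5.93 FPKM in irradiated cultures with and without DL1 (-0.515, adjusted p = 4.16e-05) and 3.86 and 6.31 FPKM in control cultures (-0.59, adjusted p = 2.43e-05). Between irradiated and control cultures without DL1, 3 rose and 4 fell, beside 29.7% of all genes called, among them FLT3 at 6.23 and 14.5 FPKM (-1.11, adjusted p = 2.83e-04) and CD34 at 160 and 238 FPKM (-0.58, adjusted p = 2.54e-04), which both fell as MEIS1 did. MYB and IGF1R were higher there, by 0.32 (adjusted p = 0.0136) and 0.34 (adjusted p = 0.0244). With DL1 in both arms, CD34 alone of the 11 passed, at 204 and 271 FPKM in irradiated and control cultures (adjusted p = 0.00792). None of the 12 passed in freshly sorted cells, where FLT3 had 46.7 ± 0.852 FPKM in irradiated and 70.0 ± 10.5 FPKM in control cells (SD, n = 3, adjusted p = 0.183).

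Over the 12 cultured libraries HOXA9, HOXA10 and HLF went together, with Pearson correlations of log2(FPKM + 1) of 0.94 for HOXA9 with HOXA10, 0.93 for HOXA9 with HLF and 0.95 for HOXA10 with HLF. These libraries share groups, so the values mostly restate the DL1 difference. Between deviations from the group means the same pairs had 0.71, 0.40 and 0.51. MEIS1 and HOXA9 had -0.39 over the libraries and 0.60 between deviations: they were apart in their group means and together within groups. Among 9221 other genes with a mean of at least 5 FPKM, those with the highest correlation were 3110082I17RIK (0.964) and TCEAL8 (0.957) for HOXA9, 3110082I17RIK (0.968) and GRB10 (0.964) for HOXA10, ENDOD1 (0.981) and LRRC8D (0.978) for HLF, and TSPAN3 (0.983) and PIM2 (0.981) for MEIS1. The best for HOXA7 was METTL10 (0.973), for HOXA5 PANK4 (0.908), for HOXB4 VPS24 (0.901) and for PBX3 KLHL7 (0.879), and all are descriptions of these 12 libraries.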

How the data were processed

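RNA of 18 mouse LSK libraries was extracted with miRNeasy columns and made into libraries with TruSeq RNA v2 reagents, per the labels' protocols. The authors deposited FPKM in 2 tables, each normalized on its own: 12 cultured libraries stand in one and 6 fresh ones in the other. Per the submitters' processing notes they used TopHat 1.4.1, Cufflinks 1.3.0, Cuffdiff and the build hg19, a human build although the cells are mouse. The rows carry mouse gene names such as LY6A and 3110082I17RIK, so the annotation behind them was of mouse. Its version and the filters are not given in the sources used here. Each table has 25629 rows, and 28 repeat another row's name. The column IR1DL1 is read here as the first irradiated library with DL1. The labels do not say that the libraries of a group came from different mice, so p-values measure only the spread between these samples, which may be technical.

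Values were put on the log2(FPKM + 1) scale. Genes whose mean over a table reached 1 FPKM were tested by limma 3.58.1 (R 4.3.3, mean-variance trend). Benjamini-Hochberg adjustment ran over all of them, and 0.05 was the threshold. All 12 cultured libraries entered 1 fit. No count model was used, because the values are not counts. The script was tested on simulated data: in the cultured design irradiated against control, 85% of log2 changes of 0.5 and 96% of log2 changes of 1 were recovered.

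For some genes the values are whole multiples of 1 step, taken as 1 read, and reads implied are given where all libraries fell within 0.02 of a whole number and the implied length lay within 1.2 times that of an annotated transcript. Exon overlaps come from the GENCODE annotation and promoter stretches from RefSeq. The members and the gene lists were chosen with earlier results of these data known. All 9 members were named; from each list, genes that passed may be named and the 4 with the smallest p in a comparison are given with values (not for irradiated cultures with DL1 against control cultures, where lists are not described); and the 2 genes most correlated with a member are named. Alternatives were other pseudocounts, filters and scalings, a fit of only the groups compared, a replicate block and leaving out each library. Same-numbered libraries of irradiated cultures with and without DL1 deviated from their group means together in 3 of 3 pairs (correlations from 0.145 to 0.355, against at most 0.044 for other numbers). The labels do not state a pairing, and with 3 libraries a group such a match cannot establish one. The reported fit did not pair these groups, and the replicate block was an alternative only. Some genes of the lists are not reported here.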

Additional observations from a re-analysis of the deposited data

How the results depend on the processing

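Of 855 values of single members under the alternatives, 837 kept their side of the threshold, 12 lost the call, 6 gained it and 0 reversed. Among those 837, 36 changed sign without a call in either fit. With a mean FPKM of at least 5, which left 2 members tested in culture, the members called became 1 of 2 for irradiated against control cultures, 2 for DL1 in control and 2 for DL1 in irradiated cultures, and 1 for irradiated cultures with DL1 against control cultures. Fitting only the groups compared left 1 member and 1656 genes in place of 3568 for irradiated against control cultures, and gave 999 genes in place of 380 for the same with DL1 in both arms; with no filter, irradiated against control cultures with DL1 gave 0 members and 222 genes. The genes whose irradiation change differed with DL1, 9 in the reported fit, numbered 18 with a pseudocount of 5, 3 with no filter and 5 with a mean of at least 5. In freshly sorted cells, 13 genes became 4 with no filter and 21 without ribosomal and small RNA rows.

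As each library was left out, the members called ranged from 1 to 3 for irradiated against control cultures, 0 to 1 with DL1 in both arms, 5 to 7 for DL1 in control cultures, 5 to 6 for DL1 in irradiated cultures and 4 to 5 for irradiated cultures with DL1 against control cultures. The genes called ranged in the same order from 1880 to 4695, 104 to 285, 2214 to 2918, 3854 to 6002 and 1643 to 2452, from 0 to 191 for the difference in irradiation change, and from 5 to 15 in freshly sorted cells. Where scaling moved the share of higher genes among those called, it was 52.4% without ribosomal and small RNA rows against 69.2% in freshly sorted cells; with median-ratio scaling it was 57.6% against 46.5% for irradiated cultures, 42.6% against 53.1% for DL1 in control and 45.3% against 59.0% for DL1 in irradiated cultures. Without ribosomal and small RNA rows it was 44.5% against 54.5% for irradiated cultures with DL1 against control cultures. The causes were not tested.

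Same-numbered libraries deviated together in irradiated cultures with and without DL1, which does not establish a pairing. In no other pair of groups did all same-numbered libraries deviate together with a correlation over 0.1, and 11 of 18 libraries correlated best with their own number. A replicate block kept the members called at 2, 1, 6, 5 and 4 in the order above and at 0 in freshly sorted cells, changed no member's call for DL1 in irradiated cultures, and gave 3 genes in place of 9 for the difference in irradiation change. A replicate block on these irradiated groups alone, chosen after seeing the data, also called 5 members. Few reads stand behind HOXA10 with DL1.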
